A study of Gallus gallus with 20 samples.

Results

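Liver RNA of Guangxi Ma chickens, a local Chinese laying breed, was compared between birds of high and low laying performance at 2 ages, and the question was whether the high minus low difference of each gene depended on age. High and low layers of week 50 and high and low layers of week 72 made up the groups, each with 4 libraries, so 16 of the 20 libraries of the series entered the comparison. The other 4 libraries, from birds of week 32, served as a reference level and added to the estimate of the spread; their titles give no laying class, although another label calls them high. All birds were of the same breed, the tissue was whole liver and the libraries were enriched for mRNA. Expression was given as TPM, an abundance per transcript length that is scaled to a fixed total in each library. Of 21749 listed genes, 12808 reached 1 TPM in at least 4 libraries and were tested. The interaction of a gene is its week 72 high minus low difference less its week 50 high minus low difference, on the log2(TPM + 1) scale. A gene was said to reverse when those 2 differences had opposite signs, and the 115 genes that did so by at least 0.5 log2 units at both ages are called reversing genes here. The signs and sizes of the differences chose these genes, so their differences are a description and not a separate test.

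The liver of a laying hen makes the yolk. Under estrogen it synthesises vitellogenins and apolipoproteins of very low density lipoprotein, loads them with triglyceride and cholesterol and exports them to the ovary. Cholesterol is built from acetyl-CoA through mevalonate, squalene and lanosterol by a chain of enzymes whose genes share a transcription factor, SREBP-2, that is activated when membrane sterol is low. Laying wanes with age, and birds of one age differ in how many eggs they lay. A gene that reverses is one for which the better layers have less transcript at the one age and more at the other.

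The 20 libraries were alike in summed values, genes above 0 and rank correlation, but not in every cell type marker. The sum of all listed values was 764047 to 852815 TPM, between 17155 and 18005 genes were above 0, and Spearman correlations over the tested genes lay between 0.898 and 0.965 in 190 pairs, none of which held identical values. The read depth cannot be taken from TPM. All 10 hepatocyte markers were present and together held 42468 to 122741 TPM per library. Markers of B or plasma cells together held 57.8 to 11091 TPM and erythroid markers 161 to 3804 TPM. These lists thus varied widely between libraries. By median correlation with the rest, 3 libraries ranked last: replicate 1 of week 50 high (0.928), replicate 3 of week 50 low (0.923) and replicate 2 of week 72 low (0.923). Week 72 low replicate 3 stood apart in another way: for vitellogenins and most sterol enzymes it lay with the high layers rather than with the other 3 low layers, it had the highest interferon gene mean of its group, and for several of the genes and lists it touches values without it are given beside those with it. Whether each library is a different bird is not stated, so the p-values cover sample spread alone, which could be technical in part or whole.

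No gene passed the interaction test (0.0%; limma, moderated test, adjusted p under 0.05 over 12808 genes), and the smallest adjusted p was 1. At an unadjusted p under 0.05 there were 304 genes (2.37%), of which 157 (1.23%) had a higher and 147 (1.15%) a lower high minus low difference at week 72. By chance this limit would pass 640.4 of 12808 genes, so fewer were found than chance alone would give. The interaction was above 0 in 48.9% of genes, with a median of -0.01. Within each age few genes differed either: high minus low gave 0 calls at week 50 (0.0%) and 1 at week 72 (0.00781%), the long noncoding RNA LOC107049678, a call that was lost with a pseudocount of 0.1, no filter, a filter of 5 TPM, the 16 libraries alone or a replicate block, and when most single libraries were left out. There were 380 (2.97%) and 675 (5.27%) genes at an unadjusted p under 0.05 at weeks 50 and 72. The first count was below and the second close to the 640.4 that chance would give. High layers had the higher mean in 59.8% of genes at week 50 and 55.8% at week 72.

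The sign of the laying difference was opposite at the 2 ages in 5185 genes (40.5%), of any size, and 2340 of these (18.3%) went from lower to higher in the high layers while 2845 (22.2%) went the other way. With at least 0.25 log2 units at both ages 562 genes (4.39%) reversed, against 1385 (10.8%) with the same sign. At 0.5 units 115 genes (0.898%) reversed, 68 (0.531%) to high above low and 47 (0.367%) to high below low, while 282 (2.2%) kept their sign. At 1 unit 8 genes (0.0625%) reversed: the sterol enzyme gene HSD17B7, TRIM7.1, TSKU, MHCY11, the microRNA gene MIR1592 and LOC121108210, LOC395159 and LOC121109655. Just inside the limit of 0.5 lay MCC and LOC112530443, whose smaller difference was 0.5002 and 0.5022. Just outside it were IKBIP, SLC1A1 and S100Z, at 0.496, 0.4933 and 0.4932.

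**Figure D1:**
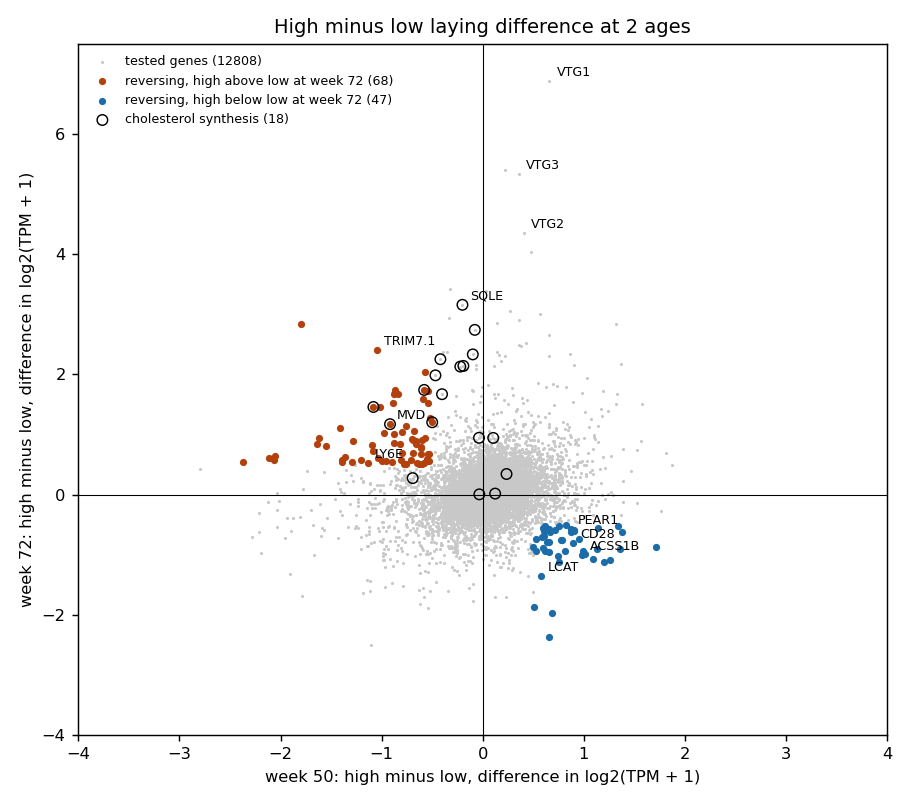
High minus low difference at week 50 (x axis) against week 72 (y axis), in log2(TPM + 1) units, for the 12808 tested genes; coloured points are the 115 genes that reverse by at least 0.5 units at both ages and circled points are the cholesterol synthesis genes. Most circled points lie well above 0 on the y axis and just left of 0 on the x axis, while VTG1, VTG2 and VTG3 lie above 0 on both.

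Genes of cholesterol synthesis stood together on the side where high layers went from lower to higher. Of 21 genes on the list, 18 were tested and EBP, IDI1 and TM7SF2 were not among the listed genes. High layers had the lower mean in 15 of the 18 at week 50 and the higher mean in all 18 at week 72, and 15 reversed in sign. Over all tested genes 18.3% reversed in this direction, and high layers had the higher mean in 59.8% at week 50 and 55.8% at week 72. None passed the interaction test after adjustment, and 13 had an unadjusted p under 0.05, all higher, against 1.23% of all tested genes. The median interaction was 2.21 against -0.01 over all tested genes. The median difference was -0.21 at week 50 and 1.56 at week 72. The week 50 differences were small for most members, so that 4 of the 18, among them MVD, FDFT1 and HSD17B7, reversed by at least 0.5 units at both ages. With week 50 high replicate 3 left out 9 went from lower to higher instead of 15, and 11 did without the 3 lowest ranked libraries. The number with an unadjusted p under 0.05 was 12 to 15 over the settings run. The median interaction was 2.76 without week 72 low replicate 3 and 1.89 without week 50 high replicate 3.

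MVD (chromosome 11, 18069487 to 18072385, GRCg7b) encodes mevalonate diphosphate decarboxylase, which makes the first isoprene unit of the pathway. It had 32.8, 40.0, 17.8 and 57.3 TPM in week 50 high replicates 1 to 4 and 49.8, 55.7, 55.8 and 117 TPM in week 50 low. At week 72 it had 25.2, 35.6, 43.1 and 20.4 TPM in high layers, and low layers had 7.66, 16, 23.8 and 8.6 TPM. The groups overlapped at each age by 1 library of one group, week 50 high replicate 4 and week 72 low replicate 3. The difference was -0.92 ± 0.37 (SE) log2 units at week 50 and 1.17 ± 0.37 at week 72, and the interaction was 2.09 ± 0.52 (limma, unadjusted p = 0.000771, adjusted p = 1). MVD was 1 of 4 genes (0.0312%) whose difference reversed with an unadjusted p under 0.05 at both ages, while 49 genes (0.383%) met that limit with the same sign. The other 3 were CD28, LOC121108210 and POLR2L, a small subunit shared by the nuclear RNA polymerases.

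FDFT1 (chromosome 3, 107159522 to 107170589) encodes squalene synthase, the first step that is committed to sterol. Its values were 201, 207, 58.0 and 74.5 TPM in week 50 high, 179, 315, 192 and 84.0 TPM in week 50 low, 88.5, 122, 72.8 and 61.7 TPM in week 72 high, and 18.4, 23.3, 82.6 and 9.34 TPM in week 72 low. The week 50 groups overlapped widely, and at week 72 only low replicate 3 lay among the high layers. The interaction was 2.32 ± 0.75, and 2.90 without that library. It was lowest, at 1.89, when week 72 low replicate 4 was left out.

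HSD17B7 (chromosome 8, 3807059 to 3812894) encodes a keto-reductase that acts on sterol intermediates after lanosterol. The 4 week 50 high libraries, at 53.7, 69.6, 29.1 and 60.9 TPM, lay wholly below the 4 week 50 low libraries, at 85.2, 88.8, 110.0 and 167 TPM; 66 genes (0.515%) had this separation at week 50. At week 72 high layers had 30.5, 40.1, 65.2 and 30.1 TPM and low layers 7.46, 4.24, 78.6 and 12.3 TPM. Low replicate 3 was thus the highest of the 8 libraries of week 72 and the other 3 low layers the lowest. The differences were -1.08 ± 0.59 and 1.46 ± 0.59, and the interaction was 2.54 ± 0.84.

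**Figure D2:**
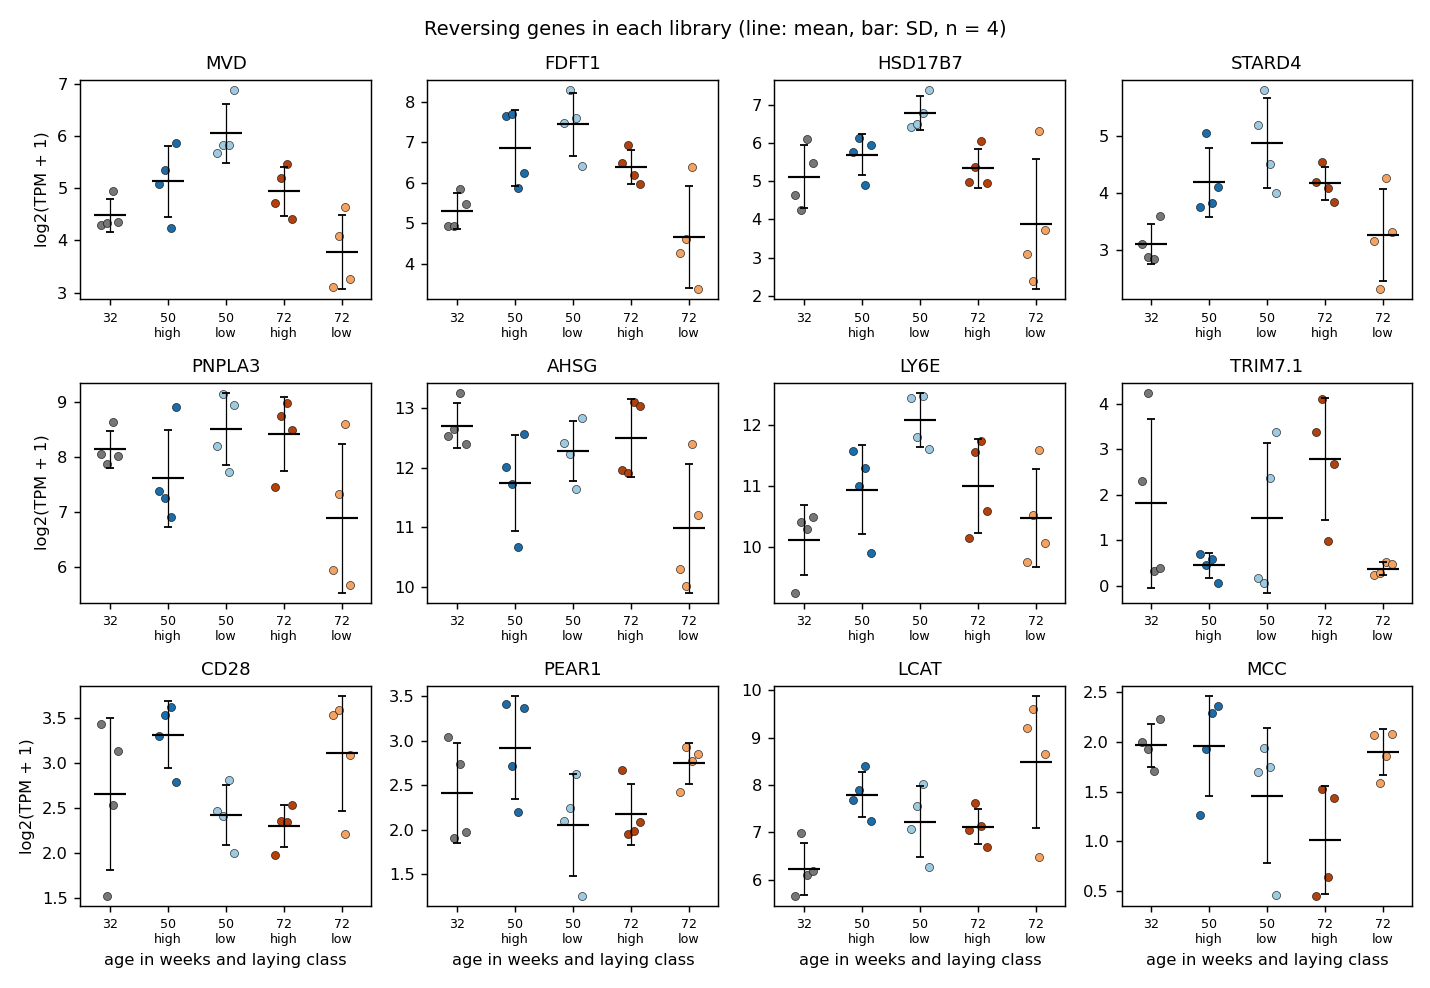
TPM on a log2(TPM + 1) axis in each library of the 5 groups for 12 reversing genes; points are libraries, the line is the group mean and the bar its SD (n = 4). In the panels of MVD, FDFT1 and HSD17B7 the mean of the low layers lies above that of the high layers at week 50 and below it at week 72, where 1 low library, replicate 3, lies within or above the high layers.

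Members below the limit of 0.5, ACAT2 excepted, had week 50 differences smaller than their SE. SQLE, squalene epoxidase, had the largest interaction of the 18, 3.36 ± 1.0, with differences of -0.20 ± 0.71 at week 50 and 3.16 ± 0.71 at week 72. The interactions of FDPS, LSS, CYP51A1, MSMO1, NSDHL and DHCR7, which act between isoprene assembly and the last reductions, lay between 2.07 ± 0.62 (LSS) and 2.67 ± 0.76 (MSMO1), with week 50 differences from -0.47 (FDPS) to -0.10 (DHCR7). The values of MVK, SC5D and ACAT2 were 0.84 ± 0.39, 0.98 ± 0.48 and 0.97 ± 0.60. HMGCS1, which makes HMG-CoA, PMVK and LBR had interactions of 0.11 ± 0.69, 0.04 ± 0.32 and -0.11 ± 0.33, each smaller than its SE.

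**Figure D3:**
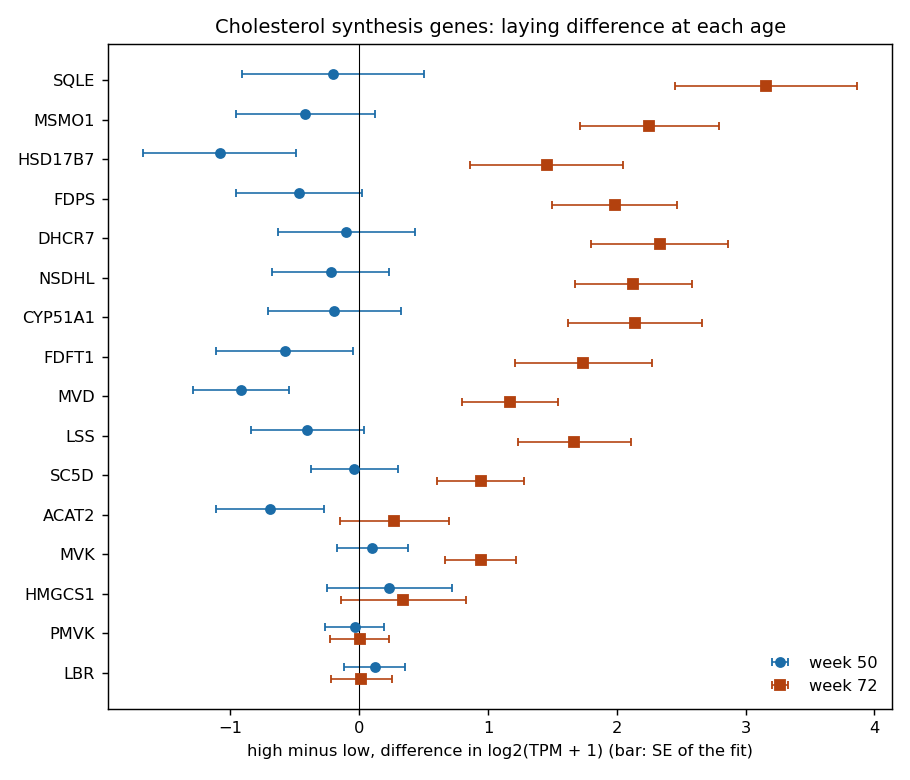
High minus low difference at week 50 and at week 72, in log2(TPM + 1) units with SE bars, for 16 of the 18 tested cholesterol synthesis genes. Week 50 points lie between -1.08 (HSD17B7) and 0.23 (HMGCS1), and week 72 points between 0.00 (PMVK) and 3.16 (SQLE).

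The mean of the 18 log2 values in each library was 6.76 ± 0.42 (SD, n = 4) in week 50 high, 7.07 ± 0.27 in week 50 low, 6.50 ± 0.33 in week 72 high and 5.03 ± 1.0 in week 72 low. Week 32 libraries stood at 6.10 ± 0.27. In week 72 low the values were 4.58, 4.25, 6.49 and 4.78, so that replicate 3 lay inside the high layers' range of 6.16 to 6.88 and the other 3 below it. The low layers accounted for most of the age change: the median member was lower at week 72 than at week 50 by 0.31 in high layers and by 2.44 in low layers (medians -0.31 and -2.44). In low layers 5 genes passed the test of age (0.039%; limma, adjusted p under 0.05), against 0 in high layers (0.0%), and 4 of the 5 were sterol enzyme genes: MVD fell by 2.28 ± 0.37 (adjusted p = 0.0468), and FDPS and NSDHL also fell. The fifth was DHDH. At an unadjusted p under 0.05 there were 1092 genes (8.53%) in low layers and 588 (4.59%) in high layers. Without week 72 low replicate 3 the interaction test called 18 genes in place of 0, all with an interaction above 0. They included 9 cholesterol synthesis genes (among them CYP51A1, DHCR7, FDPS, HSD17B7, LSS, MSMO1, NSDHL and SQLE) and the 3 vitellogenins; HSD17B7, at 3.35 (adjusted p = 0.0139, limma), was the only one of these 12 that reversed by at least 0.5 units. That library held the highest value of its group for each of these 12 genes, so leaving it out was bound to widen their week 72 differences.

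**Figure D4:**
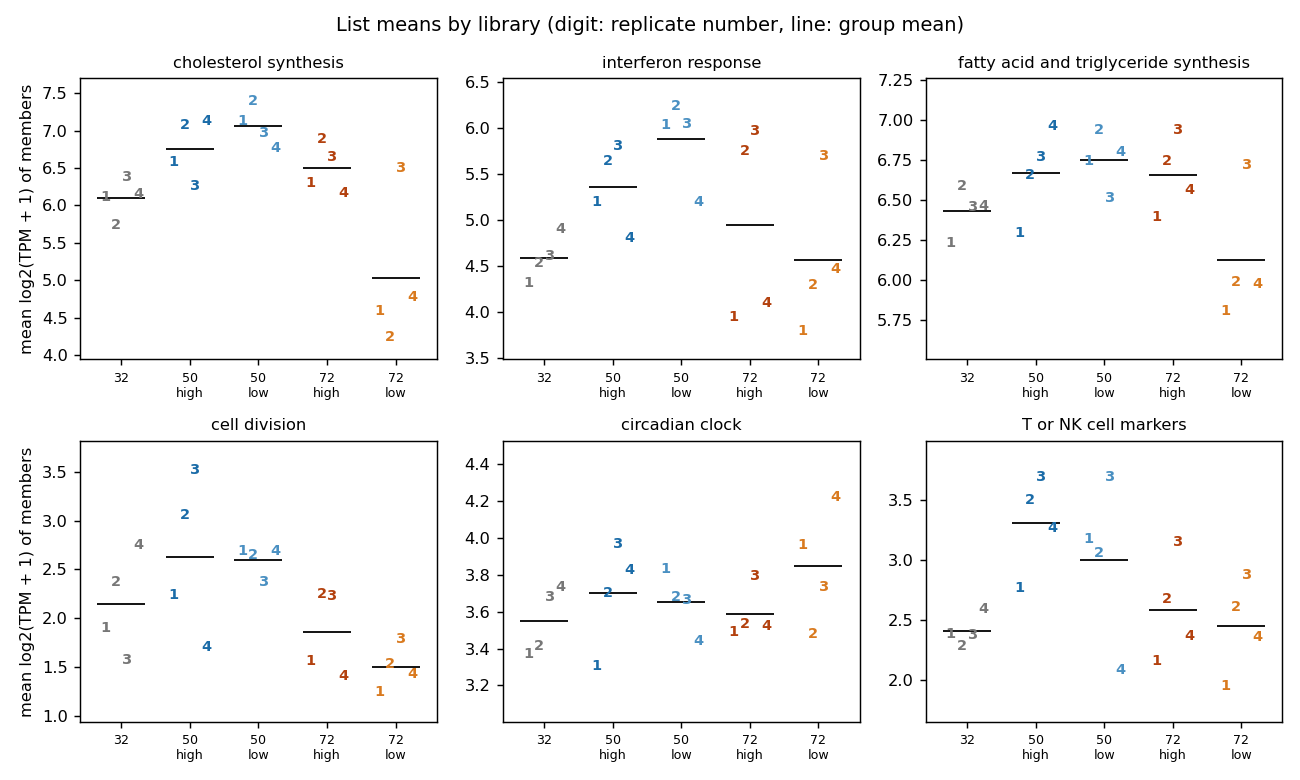
Mean log2(TPM + 1) over the members of 6 gene lists in each library of the 5 groups; digits are replicate numbers. For cholesterol synthesis, week 72 low replicates 1, 2 and 4 lie between 4.25 and 4.78 while replicate 3 lies at 6.49; for interferon response, both week 72 groups are split.

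Genes that sense, move and store sterol were mixed. Of 19 tested, 2 had an unadjusted p under 0.05, both higher, against 1.23% of all tested genes, and the median interaction was -0.02. Reversal was seen in 6, against 40.5% of all tested genes. STARD4, a carrier of cholesterol between membranes, was the 1 that reversed by at least 0.5 units. It had 12.5, 32.4, 13.2 and 16.3 TPM in week 50 high, 36.0, 55.4, 21.8 and 15.1 TPM in week 50 low, 17.4, 22.5, 16.2 and 13.4 TPM in week 72 high, and 7.99, 3.98, 18.3 and 8.96 TPM in week 72 low. Its differences were -0.69 ± 0.39 and 0.91 ± 0.39. SREBF2, which encodes SREBP-2, had 47.6 to 92.5 TPM in week 50 high and 60.5 to 108 TPM in week 50 low. At week 72 its 58.5, 74.1, 66.1 and 51.9 TPM in high layers were all above the 21.0, 23.6, 50.4 and 25 TPM in low layers, a separation seen in 248 genes (1.94%) at week 72, and the interaction was 1.24 ± 0.39 with a week 50 difference of only -0.13 ± 0.28. INSIG1, which holds SREBP in the endoplasmic reticulum and is itself an SREBP target, had an interaction of 1.10 ± 0.57. SOAT1, which esterifies cholesterol for storage, was on the other side at -0.99 ± 0.51, with no reversal (-0.13 ± 0.36 and -1.11 ± 0.36).

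LCAT, the plasma enzyme that esterifies cholesterol on lipoproteins and is secreted by the liver, reversed in the direction opposite to the synthesis genes. It had 204, 236, 336 and 149.8 TPM in week 50 high and 134, 186, 258 and 75.7 TPM in week 50 low, 131, 195, 139 and 103 TPM in week 72 high, and 589, 779, 87.9 and 400.0 TPM in week 72 low. The low layers of week 72 lay above every other library of the series except for replicate 3, which was below the high layers of its age. Its differences were 0.57 ± 0.51 and -1.36 ± 0.51 and its interaction -1.93 ± 0.72. With 1 library left out the interaction ran from -2.60 (week 72 low replicate 3; limma, adjusted p = 0.0577) to -1.56 (week 72 low replicate 2). Since replicate 3 had the lowest LCAT value among the low layers of week 72, a larger gap at that age was certain once it was dropped. The p-value of that fit follows from the choice of library and is no separate test of LCAT.

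Of 31 tested genes of fatty acid and triglyceride synthesis, 6 had an unadjusted p under 0.05, all higher, against 1.23% of all tested genes. An interaction above 0 was found in 24, against 48.9%. Signs reversed in 18, against 40.5% of all tested genes, and in 14 of these from lower to higher in high layers, against 18.3%. The differences at week 50 were small, however, and only FASN, fatty acid synthase, reached 0.5 at both ages. Both counts moved with single libraries: leaving out replicate 1 or 3 of week 72 low turned the 6 into 2 or 10, and leaving out replicate 3 of week 50 low turned it into 9. It was 3 when replicate 3 of week 50 high, replicate 2 or 4 of week 50 low, or replicate 2 or 4 of week 72 high was left out. The 14 became 9 when replicate 2 of week 50 low was. FASN had 129, 383, 368 and 428 TPM in week 50 high and 588, 379, 263 and 655 TPM in week 50 low, then 238, 211, 355 and 324 TPM in week 72 high and 90.6, 31.4, 369.9 and 392 TPM in week 72 low. Groups overlapped at both ages. SCD, which desaturates stearate, had an interaction of 3.75 ± 1.32 (4.89 without week 72 low replicate 3), with differences of -0.33 ± 0.93 and 3.42 ± 0.93, and FADS2, an omega-6 and omega-3 desaturase, one of 1.62 ± 0.52. PNPLA3, a lipid droplet hydrolase and acyltransferase that is induced with lipogenesis in mammals, was not on the list and reversed by more: it had 166, 152, 119.8 and 476 TPM in week 50 high, 292, 564, 212 and 490.3 TPM in week 50 low, 174, 428, 499 and 358 TPM in week 72 high, and 60.8, 160.4, 384 and 50.5 TPM in week 72 low. Its differences were -0.89 ± 0.54 and 1.52 ± 0.54, and the interaction was 2.41 ± 0.76. Leaving out 1 library gave 2.01 (week 72 low replicate 4) to 2.98 (week 72 low replicate 3). Fatty acid oxidation had 0 of 20 members at an unadjusted p under 0.05 and a median interaction of -0.09; the largest was EHHADH, a peroxisomal enzyme, at -0.85 ± 0.58.

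In the fit as reported, some yolk precursor genes had large interactions without reversing. VTG1, VTG2 and VTG3, the vitellogenins, had interactions of 6.22 ± 2.17, 3.94 ± 1.30 and 4.98 ± 1.54, that of VTG1 being the largest of the 12808 genes (8.57, 5.38 and 6.79 without week 72 low replicate 3), and that of APOV1, an apolipoprotein of the yolk particle, was 3.57 ± 1.39. High layers had the higher mean at both ages, by 0.41 ± 0.92 at week 50 and 4.35 ± 0.92 at week 72 for VTG2. Of 15 tested members 5 had an unadjusted p under 0.05, all higher, against 1.23% of all tested genes, and the median interaction was 0.18. Reversal was seen in 1, against 40.5% of all tested genes, and that member went from lower to higher in high layers. The number that did so was 5 without week 50 low replicate 3 and 4 without week 50 high replicate 2 or 4. The week 50 signs of some members thus rested on single libraries. Week 50 low replicate 3 held the lowest VTG1 value of its group, 595 TPM against 3708 TPM or more. VTG1 had 48.0, 0.443, 7371 and 17.3 TPM in week 72 low against 4988 to 9744 TPM in week 72 high and 595 to 6639 TPM in week 50 low, so the week 72 low group was split into 1 library within the high range and 3 below it. The 3 vitellogenins resemble each other in sequence, and how reads were shared among them is not known.

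Interferon response genes reversed in 1 direction. Of 30 tested, 26 reversed and all 26 went from lower to higher in high layers, against 2340 of 12808 (18.3%) over all genes. An interaction above 0 was found in 29, against 48.9% of all tested genes. The medians were -0.41 at week 50, 0.38 at week 72 and 0.76 for the interaction. Only 2, CMPK2 and EIF2AK2, had an unadjusted p under 0.05, both higher, against 1.23% of all tested genes. That count became 11 when week 72 low replicate 3 was left out and 0 to 7 when another library was (0 for 9 of them). None passed after adjustment. The 5 that reversed by at least 0.5 units were CMPK2, EIF2AK2, MX1, RSAD2 and IFI6. MX1, known as an antiviral GTPase in mammals, had 22.7, 33.7, 26.2 and 11.5 TPM in week 50 high and 114, 66.4, 71.1 and 21.2 TPM in week 50 low. At week 72 it had 1.82, 45.5, 74.1 and 5.33 TPM in high layers, and low layers had 3.16, 3.43, 68.9 and 7.72 TPM. At that age 2 high layers and 1 low layer were at 45.5 TPM or above, and the other 5 libraries at 7.72 TPM or below. The interaction of MX1 was 1.98 ± 1.29, that of RSAD2, a radical SAM antiviral enzyme, 1.84 ± 1.46, and that of IFI6 1.96 ± 1.65.

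The same split ran through the list. Its mean log2 value was 3.94, 5.75, 5.96 and 4.10 in week 72 high and 3.79, 4.29, 5.69 and 4.47 in week 72 low, a mean of 4.94 ± 1.06 (SD, n = 4) against 4.56 ± 0.81, so the groups differed by less than their spread. At week 50 it was 5.36 ± 0.45 in high and 5.87 ± 0.46 in low layers, with overlap, and at week 32 4.59 ± 0.24. Without week 72 high replicate 3 the number that went from lower to higher dropped to 13, and leaving out the 3 lowest ranked libraries gave 17. LY6E, a membrane protein known as an interferon-induced gene in mammals, was not on the list and also went from lower to higher. It had 3046, 2038, 2500.0 and 958 TPM in week 50 high, all below the 5554, 3552, 5686 and 3104 TPM of week 50 low. At week 72 high layers had 1127, 2993, 3424 and 1536 TPM and low layers 864, 1476, 3075 and 1066 TPM, with overlap. The differences were -1.14 ± 0.44 and 0.52 ± 0.44.

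Other genes that went from lower to higher in high layers included a hepatocyte secretory gene and several of low level. AHSG encodes fetuin-A, an abundant plasma glycoprotein made by hepatocytes. It had 4144, 3375, 1624 and 6057 TPM in week 50 high, 5446, 4799.5, 3197 and 7319 TPM in week 50 low, 4002, 3839.8, 8795 and 8389.5 TPM in week 72 high, and 1265, 1034, 5415 and 2353 TPM in week 72 low. Low layers of week 72 were below the high layers except for replicate 3, and the interaction was 2.06 ± 0.67. It was 2.53 without that library and 1.70 without week 50 high replicate 3. Of the 10 hepatocyte markers, AHSG included, 8 reversed, 7 of them to high below low, with a median interaction of -0.35. Their median difference was only 0.08 at week 50 and -0.32 at week 72, and AHSG alone reached 0.5 units at both ages. Among all tested genes 40.5% reversed, 22.2% to high below low. TRIM7.1, a gene of the TRIM family on chromosome 16, had 9.40, 16.2, 0.965 and 5.39 TPM in week 72 high, all above the 0.182, 0.215, 0.440 and 0.388 TPM of week 72 low. At week 50 its level was 0.0451 to 0.624 TPM in high layers, and low layers had 0.133, 0.0438, 4.14 and 9.47 TPM. SLCO1B1, an organic anion uptake carrier of hepatocytes in mammals, had an interaction of 1.83 ± 0.71, and AKR1E2, an aldo-keto reductase, of 1.89 ± 0.72. HPSE2, which encodes heparanase-2, had one of 2.27 ± 0.85, with 13.1, 1.32, 3.48 and 17.1 TPM in week 72 high and 0.290 to 2.45 TPM in week 72 low. LOC395159, whose listed synonym is SERAF, was listed at 0 in 3 week 50 high libraries and at 0.101 TPM in the other, at 12.8, 10.5, 0 and 0 TPM in week 50 low, at 14.6 to 47.2 TPM in week 72 high and at 0 to 14.9 TPM in week 72 low.

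Among the 47 genes that went from higher to lower in high layers, CD28 had the smallest interaction p of those with a gene symbol. CD28 (chromosome 7, 13056882 to 13069542) is the costimulatory receptor of T cells. It had 8.87, 10.6, 11.3 and 5.95 TPM in week 50 high and 4.53, 4.33, 6.05 and 3.0 TPM in week 50 low, then 2.93, 4.11, 4.09 and 4.80 TPM in week 72 high and 10.6, 11.1, 3.62 and 7.54 TPM in week 72 low. At week 50 the groups overlapped narrowly, at 5.95 and 6.05 TPM, and at week 72 only low replicate 3 lay among the high layers. Its differences were 0.89 ± 0.35 and -0.81 ± 0.35, and the interaction was -1.70 ± 0.50 (limma, unadjusted p = 0.00306, adjusted p = 1).

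Other T cell genes had other patterns of values. CD3E, part of the T cell receptor complex, had 37.9, 63.4, 66.3 and 57.6 TPM in week 50 high, 40.0, 45.5, 73.2 and 15.7 TPM in week 50 low, 17.1 to 40.0 TPM in week 72 high and 14.8 to 35.5 TPM in week 72 low. Of 15 tested T or NK cell markers 3 reversed, against 40.5% of all tested genes. CD28 was the 1 at 0.5 units and at an unadjusted p under 0.05, and the median interaction was -0.17. The summed TPM of the markers was 163 to 292 in week 50 high, 75.6 to 347 in week 50 low, 87.0 to 194 in week 72 high and 75.8 to 168 in week 72 low, and none of the 16 was at 0 in every library. Larger medians were found for 5 tested B or plasma cell markers (1.59, 1 at an unadjusted p under 0.05) and 7 erythroid markers (0.80, 0 at that limit). All of these had an interaction above 0, against 48.9% of all tested genes, of which 2.37% had an unadjusted p under 0.05. The B or plasma cell markers held 175 to 11091 TPM in week 50 low. Kupffer cell, granulocyte, stellate cell and cholangiocyte lists had medians from -0.25 to 0.10. An interaction above 0 was found in 1 of 11 Kupffer cell, 3 of 4 granulocyte, 3 of 14 stellate cell and 1 of 6 cholangiocyte markers. In whole tissue, fewer cells of a type and less RNA per cell cannot be told apart. XCR1, a chemokine receptor of cross-presenting dendritic cells in mammals, also reversed (0.60 ± 0.37 and -0.69 ± 0.37).

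Further genes of this direction overlapped more between the groups. IGFBP2, a binding protein of insulin-like growth factors, had 3.24, 4.08, 0.652 and 5.80 TPM in week 50 high, 1.33, 0.436, 1.84 and 0.550 TPM in week 50 low, 1.33, 1.01, 1.83 and 9.49 TPM in week 72 high and 2.47, 26.8, 8.62 and 1.34 TPM in week 72 low. CISH, a cytokine and growth hormone signalling inhibitor, had 40.7 to 119.8 TPM in week 50 high and 11.3 to 73.7 TPM in week 50 low, against 19.0 to 114 and 39.4 to 177 TPM at week 72. The groups overlapped at both ages for both genes, and the interactions were -2.0 ± 0.95 and -2.04 ± 0.98. IRS4, an adaptor that docks to insulin and growth factor receptors, had 15.5, 11.3, 28.1 and 14.2 TPM in week 72 high and 30.8, 32.2, 22.9 and 27.5 TPM in week 72 low, with an interaction of -1.27 ± 0.63. GFRA3, a co-receptor of the GDNF family, had one of -1.43 ± 0.64, HSD3B1, a steroid dehydrogenase, of -1.68 ± 0.78, and ACSS1B of -2.0 ± 0.88.

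MCC and PEAR1 had smaller interactions with smaller SE. MCC (mutated in colorectal cancers) had 0.372, 1.88, 0.558 and 1.71 TPM in week 72 high, all below the 3.18, 2.0, 2.62 and 3.23 TPM of week 72 low, as 126 genes (0.984%) did at that age. At week 50 it had 1.41 to 4.13 TPM in high and 0.377 to 2.83 TPM in low layers, and the interaction was -1.38 ± 0.45. PEAR1, a platelet and endothelial receptor in mammals, had differences of 0.87 ± 0.32 and -0.57 ± 0.32. Of the 14 endothelial markers 9 reversed in sign, all to high below low, with a median interaction of -0.36 and 1 at an unadjusted p under 0.05. The differences were small, with medians of 0.21 at week 50 and -0.13 at week 72, and 0 members reached 0.5 units at both ages. Counts of marker lists were not repeated with libraries left out. Over all tested genes 40.5% reversed, 22.2% to high below low, and 2.37% had an unadjusted p under 0.05.

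Separation of all libraries was rare in both directions. At week 50 the 4 high and 4 low libraries did not overlap in 228 genes (1.78%), 162 of them (1.26%) with high above low, and at week 72 in 374 (2.92%). In 6 genes (0.0468%) they were apart at both ages in the same direction and in 1 (0.00781%) in opposite directions. That gene was LOC121108786 (chromosome 37, 93960 to 96696), a protein-coding gene of low level. It had 1.93, 1.01, 0.895 and 1.11 TPM in week 50 high and 0.329, 0, 0.316 and 0.306 TPM in week 50 low, against 0.110, 0.118, 0 and 0 TPM in week 72 high and 0.225, 0.744, 0.434 and 0.320 TPM in week 72 low. The interaction was -1.27 ± 0.38. LOC121108210 on chromosome W, the chromosome that only female birds carry, had the smallest interaction p of all reversing genes (-2.35 ± 0.56; limma, unadjusted p = 0.000470, adjusted p = 1), with 0.784 to 4.88 TPM in week 50 high, 0.0863 to 2.43 in week 50 low, 0.131 to 1.49 in week 72 high and 1.10 to 4.20 in week 72 low.

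Clock genes reversed in 11 of 14 cases, 4 to high above low and 7 to high below low. Over all tested genes these shares were 40.5%, 18.3% and 22.2%. NPAS2, a partner of the clock activator BMAL1, went from lower to higher (-0.58 ± 0.32 and 0.52 ± 0.32), and NR1D2, a nuclear receptor that represses the BMAL1 gene, from higher to lower (0.78 ± 0.40 and -0.44 ± 0.40). These 2 had an unadjusted p under 0.05, against 2.37% of all tested genes, and HLF and PER3 had interactions of -1.29 ± 0.67 and -0.82 ± 0.44. The hour of sampling is not given in the labels, and its part in these values was not tested. Cell division genes had an interaction above 0 in 31 of 34 cases, against 48.9% of all tested genes. Of them 9 reversed, all to high above low, against 18.3% of all tested genes, and 0 had an unadjusted p under 0.05. The 9 rested on single week 50 high libraries: 22 went from lower to higher without replicate 2, 28 without replicate 3 and 1 without replicate 4, and 14 did without week 50 low replicate 3 and 6 without week 50 low replicate 4. Their median week 72 minus week 50 difference was -0.71 in high and -1.03 in low layers. Nuclear receptor genes, with ESR2 the furthest at -0.89 ± 0.72, reversed in 8 of 18 cases, 7 of them to high below low, and their median interaction was -0.16. The 8 of 18 lay near the 40.5% of all tested genes, of which 22.2% went to high below low. An interaction above 0 was found in 5 of the 18, against 48.9% of all tested genes. In the lists of endoplasmic reticulum folding (33 tested), serine and glycine synthesis (12), glycolysis (20) and heat shock proteins (19), the medians were 0.15, 0.00, -0.04 and -0.01, and 1 member in all, SEC61B, had an unadjusted p under 0.05.

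**Figure D5:**
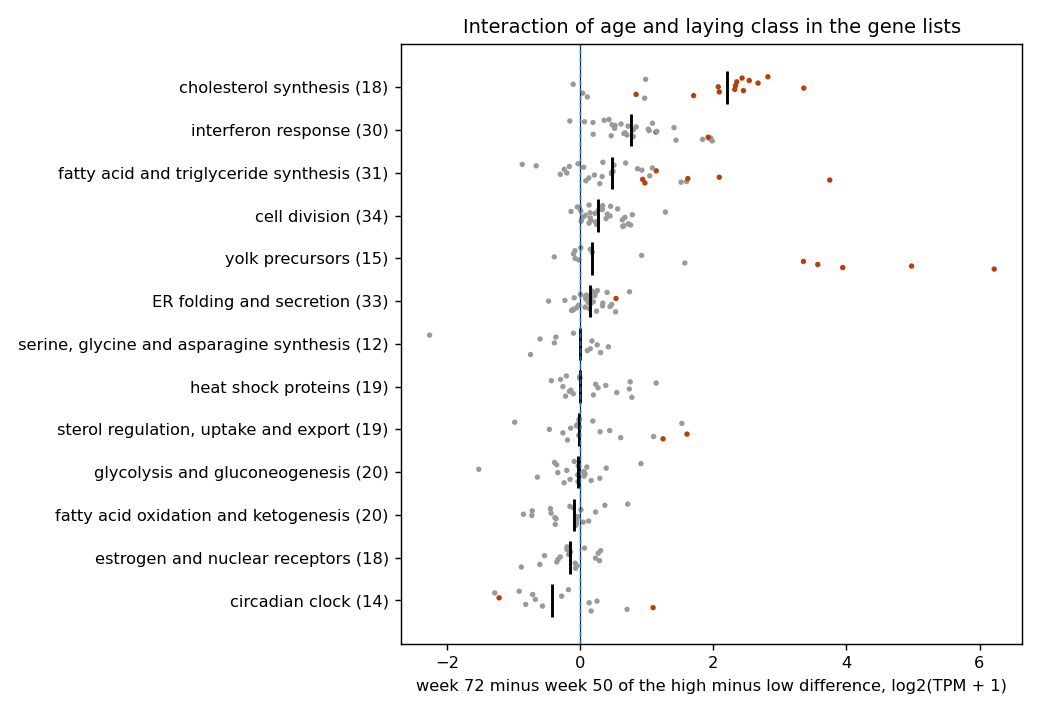
Interaction in log2(TPM + 1) units of each tested member of the 13 pathway lists; points are genes, red where the unadjusted p was under 0.05, black bars are list medians and the dashed line is the median of all tested genes, -0.01. Cholesterol synthesis has its median at 2.21 with 13 red points, and interferon response has its median at 0.76 with 2.

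Both laying classes contributed to most reversals. Of the 115 genes, the change from week 50 to week 72 in high layers and the opposite change in low layers both pushed the interaction the same way in 91 (79.1%), against 35.1% of all tested genes, and the limit at both ages that chose the 115 bears on this share. Low layers had the larger change with age in 77 of the 115 (67.0%) and in 54.6% of all tested genes. Among the 68 genes that went to high above low, they did so in 50 (73.5%), next to 72.3% of all tested genes with an interaction above 0, and the median contributions were 0.43 in high and 1.32 in low layers. Among the 47 of the other direction it was 27 (57.4%), next to 37.6% of all genes with an interaction below 0, and the medians were 0.73 and 0.98. The week 32 mean lay within the range of the 4 later group means in 72 of the 115 (62.6%) and in 56.3% of all tested genes. The limit that chose the 115 also widens that range, so it bears on this share, and it may bear on the shares of low layers above.

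By annotation, 110 of the 115 genes matched the RefSeq gene table. The 68 genes to high above low held 50 protein-coding genes, 7 long noncoding RNAs, 4 microRNA genes, 2 immunoglobulin or T cell receptor V segments and 1 transcribed pseudogene. The other 4 were unmatched, most of them with tRNA symbols. The 47 of the other direction held 37 protein-coding genes, 4 microRNA genes, 4 small nucleolar RNAs and 1 long noncoding RNA, and 1 was unmatched. The libraries were enriched for mRNA, and how well they measured microRNA, small nucleolar RNA or tRNA genes was not tested. An unadjusted interaction p under 0.05 was reached by 52 of the 115, 35 of the first and 17 of the second direction, against 2.37% of all tested genes; the limit of 0.5 at both ages sets their interaction to at least 1 in size, so this count is no result about them.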

How the data were processed

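Liver RNA of 20 chicken libraries, 4 in each of 5 groups, was sequenced after enrichment for mRNA (per the labels' protocols). The authors deposited 1 table of TPM per gene and library, built on GRCg7b per the submitters' processing notes. The aligner and the counter, their settings and filters included, were not given in the sources used here. Since TPM is relative to each library's total and keeps no read depth, no count model, counting interval or detection limit was used. By symbol, 20873 of the 21749 genes were found in RefSeq's GRCg7b gene list.

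The analysis kept genes that reached 1 TPM in 4 or more libraries and used log2(TPM + 1), on which changes of low genes appear smaller than they are. In limma 3.58.1 (R 4.3.3), a linear model gave each of the 5 groups its own mean, with a mean-variance trend and 15 residual degrees of freedom. Two-sided p-values were corrected across the 12808 genes (Benjamini-Hochberg). SE come from this model, in which the 5 groups share a variance for each gene, so that the wide week 72 low group raises the SE at week 50 too. Figures were drawn with matplotlib 3.10.9. On simulated data with 12808 genes, the interaction fit recovered 5% of 200 changed genes at 1 log2 unit, 75.5% at 2 and 97.5% at 4. Whether these shares hold for the liver libraries was not tested. In the liver libraries no gene was called, with an interaction of 6.22 for VTG1 and a median of 2.21 for cholesterol synthesis.

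The 13 pathway lists and 9 marker lists, the limit of 0.5 and the comparison itself were chosen with earlier results of these data known. Genes named were the 12 per direction with the smallest interaction p among reversing genes with a symbol, the LOC-numbered reversing gene with the smallest p in each direction, genes with no overlap at either age, every cholesterol synthesis member, up to 4 members of each other pathway list with the smallest p, and VTG1, VTG2, VTG3, APOV1 and APOB. Named outside this rule, after their values were seen, were MX1, RSAD2, IFI6, FASN, POLR2L, CD3E, LOC107049678, DHDH, the 8 genes that reversed by 1 log2 unit and the genes nearest the limit. A few genes that the rule picks are left out of the text. Alternatives were a pseudocount of 0.1, no filter, a filter of 5 TPM, median-ratio scaling, a fit of 16 libraries, a replicate block, array weights, each library left out and, added after seeing the data, the 3 libraries least like the others left out. No sequences are shown, since none were used here.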

Additional observations from a re-analysis of the deposited data

Results flagged for a closer look

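In 25 of 444 groups of 4 libraries tested (5.63%), 1 library lay far from the other 3, where chance gives about 1 in 20. The gap between that library and its nearest neighbour is given below as a share of the group's range on the log2(TPM + 1) scale (Dixon's test at the 95% level). These are values of single libraries, spread over 13 libraries, and no cause was tested. The rate of 1 in 20 holds for independent groups with a normal spread. The 444 groups share libraries and hold selected and related genes, so 5.63% is no test against chance.

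In week 50 high, the share was 1.0 for LOC395159, the 1 library above 0 being replicate 1. It was 0.864 for MVK and 0.848 for SC5D, both lowest in replicate 3, and 0.847 for FADS2 and 0.922 for NPAS2, both highest in replicate 4. APOB was lowest in replicate 1, at 8.10 against 10.9 to 11.2 in the others, with a share of 0.911. The mean of the B or plasma cell markers was lowest in replicate 3, with a share of 0.912, and that of the endothelial markers in replicate 1, with 0.891.

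In week 50 low, replicate 4 was the highest for MVD, at 6.89 against 5.67 to 5.83 (0.867), for RRM2 (0.894) and for CHAC1, at 6.57 against 2.68 to 3.09 (0.896), and the lowest for MCC (0.837). Replicate 2 was the lowest for FXYD2 (0.874) and, at 0, for LOC121108786 (0.941). Replicate 3 was the lowest for FADS2 (0.836), for the mean of the yolk precursors (0.835) and for that of the cell division genes (0.847).

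In week 72 high, XCR1 was lowest in replicate 3 (0.869), SCD in replicate 1 (0.838), APOV1 was highest in replicate 4 (0.931) and the mean of the clock genes in replicate 3 (0.855). In week 72 low, HMGCS1 was lowest in replicate 2, at 7.54 against 10.1 to 10.3 (0.914), HLF was highest in replicate 4 (0.913) and HSF2 in replicate 1 (0.843). VTG3 was highest in replicate 3, at 11.1 against 3.25 to 4.59 in the other 3 libraries, with a share of 0.83.

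LOC121108786 had all 4 high layers above all 4 low layers at week 50 and all 4 below them at week 72, with an interaction of -1.267; its adjusted p in limma was 1, so the difference between ages did not pass the test over all genes.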

How the results depend on the processing

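The number of genes called in the interaction was 0 in the fit as reported and under each alternative except one: leaving out 1 library at a time gave 0 to 18, the 18 without week 72 low replicate 3. Genes at an unadjusted p under 0.05 (304) numbered 581 with no filter, 196 with a filter of 5 TPM, 847 with array weights, 670 without the 3 lowest ranked libraries (those with the lowest median correlation) and 231 to 515 with 1 library left out. Of them 51.6% were higher, against 57.7% with median-ratio scaling, 34.6% without those 3 libraries and 38.7% to 72.6% with 1 left out. The single call at week 72 became 0 with a pseudocount of 0.1, no filter, a filter of 5 TPM, a fit of 16 libraries, a replicate block or without the 3 libraries, 11 with array weights and 0 to 63 with 1 library left out. Reversing genes (115) numbered 562 at a limit of 0.25, 8 at a limit of 1, 284 with a pseudocount of 0.1, 217 without the 3 libraries, of which 72 were among the 115, and 112 to 167 with 1 left out. Without a filter 8551 genes reversed by any size. The cause of these shifts was not tested beyond the number of genes or libraries each setting keeps.

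Over all settings, 12 to 15 of 18 cholesterol synthesis genes had an unadjusted p under 0.05 with a positive interaction and 9 to 18 went from lower to higher. For interferon response these counts were 0 to 11 and 13 to 28 of 30, for fatty acid and triglyceride synthesis 2 to 10 and 9 to 15 of 31, and for cell division 0 to 2 and 1 to 28 of 34 (fewer genes were tested under the filter of 5 TPM). For yolk precursors they were 5 to 6 and 0 to 5 of 15. The named genes that reverse by at least 0.5 log2 units under the rule reversed in sign in every setting run. Since large differences at both ages chose them, this was nearly fixed in advance and is no check of the reversals. At the limit of 0.5 at both ages, 83 to 105 of the 115 genes still reversed with 1 library left out, and 76 with array weights. Among the members with an interaction near 0, the sign of LBR turned to 0.15 with array weights and 0.19 without week 50 low replicate 4, its range with 1 library left out being -0.23 to 0.19. HMGCS1 turned to -0.061 with array weights and -0.72 without the 3 libraries, and ranged from -0.55 to 0.43 with 1 library left out. PMVK ranged from -0.16 to 0.20 with 1 library left out.

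Replicate numbers showed little pairing in the mean: same-numbered libraries had a mean correlation of deviations of 0.00874 (-0.27 to 0.241, 6 of 24 pairs over 0.1). Different numbers gave -0.00216 (12 of 72 pairs over 0.1). Yet 8 of 16 libraries correlated best with their own number, although only 24 pairs shared a number and 72 did not. Whether the numbers pair the libraries was thus not settled. With a replicate block the interaction test called 0 genes, 347 had an unadjusted p under 0.05 and 115 reversed. With 4 libraries a group even the interaction of VTG1, 6.22, was not called, so the 0 calls do not show that laying differences were alike at both ages. In the simulation an interaction of 1 log2 unit was seldom called (5%). Its genes were drawn independently, with the same spread in every group, unlike the split week 72 low group. Read depth is unknown, and low genes such as LOC121108786 carry a counting error that TPM does not show.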
